A study of Mus musculus with 2 samples.

Results

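Genes of mitochondrial protein import, mitochondrial fusion and fission, and mitochondrial quality control were followed through a lentiviral siRNA screen for survival of DNA damage. The list held 35 genes, and its members were taken as every probe set on the array annotated with 1 gene symbol that is on the list. This gave 80 probe sets for 33 of the 35 genes, out of 34945 probe sets with 1 symbol for 18193 genes in all. Tomm5 and Phb were read only by probe sets that carry a symbol of another gene as well, and they are left out of all counts.

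The screen compared the siRNA inserts recovered from MNNG survivors with those recovered from a reference control. Both cultures were ANSO4E mouse neural stem cells infected with the same genome-wide lentiviral library. The survivors were exposed to 500 µM MNNG, an alkylating agent that methylates DNA, for 15 min, grown out and selected again, whereas the reference control received the library and no MNNG. ANSO4E is 1 cell line from a transgenic animal, whose background the labels give as C57BL/6JxSJL/JF1 oocytes crossed with BDF1 sperm, so neither condition represents separate animals. Inserts of each condition were hybridized to 1 Affymetrix mouse expression array, so no difference below has a replicate check and none carries a p-value.

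Most mitochondrial proteins are made in the cytosol and enter through the TOM complex of the outer membrane, after which TIM complexes sort them into or across the inner membrane and the SAM complex inserts barrel-shaped proteins into the outer membrane. The organelles fuse through mitofusins and Opa1 and divide through the dynamin Dnm1l. The kinase Pink1 depends on import, as it is degraded in healthy mitochondria and accumulates on damaged ones. In an siRNA screen of this kind a higher signal is read as more inserts against the gene, so it is an abundance of inserts and not an expression level. More cells that carry an insert and more copies of it per cell cannot be told apart.

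Signals on both arrays were low for nearly all probe sets, and these genes were no exception. The median log2 signal over all probe sets was 0.74 in the survivors and 0.69 in the reference control. Control sequences added at hybridization were higher on the survivor array at 18 of 18 probe sets, with a median log2 difference of 2.77 (0.08 to 3.86), and centering the arrays on them lowers every difference below by 2.77, leaving 1 member gene higher and 31 lower by over 1, beside 0.0989% and 99.3% of all genes. Neural stem cell markers had a median log2 signal of 1.18 in the survivors and 1.0 in the reference control over 10 genes, which says nothing of the cells, because inserts and not transcripts were read. The highest member signal was a log2 value of 4.43 in the survivors and 4.82 in the reference control, or 21.5 and 28.3 on the linear scale. No member was above 5 on the log2 scale in the reference control (0 of 80 probe sets, beside 0.655% of all), and 0 of 80 probe sets reached a linear signal of 1000, the limit that the study used to select genes, beside 5 (0.0143%) of all probe sets with 1 symbol. Pgam5, which the study selected, had a linear signal of 2.05 in the survivors here. The deposited values therefore cannot be read against that limit, and the count of 0 says nothing of how these genes stood in the study.

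Each gene was represented by the probe set with the highest mean log2 signal over both arrays. On this basis, 11 of the 33 measured genes were higher in the survivors (43.5% of all genes), 13 were lower (38.1% of all genes) and 9 had the same value on both arrays (18.4% of all genes). The median log2 difference was 0.00, as it was over all genes. Genes lower in the survivors by over 1 on the log2 scale numbered 4, which are Timm44, Phb2, Tomm20 and Mfn1, or 12.1% of the members beside 5.45% of all genes. Genes higher by over 1 numbered 2, Mtx1 and Timm17a, or 6.06% beside 4.78%. Of the 80 probe sets, 29 were higher in the survivors, beside 43.1% of all probe sets with 1 symbol, and 31 were lower, beside 37.4%. By over 1, 6 were lower, or 7.50%, beside 4.14% of all probe sets with 1 symbol. Another 3 were higher by over 1, or 3.75%, beside 3.70%. The study applied a log2 ratio of 2.5 to gains only, together with its limit on signal. Here 1 gene in each direction passed a difference of that size, Mtx1 among the higher genes (0.253% of all genes) and Timm44 among the lower (1.73%). In each gene 1 probe set passed it, beside 0.137% of all probe sets on the higher side and 1.04% on the lower. The count of lower genes depended on the choice of probe set. With each gene at the median of its probe sets, 1 of the 33, rather than 4, was lower by over 1. The share over all genes then fell as well, to 2.04%, so 1 gene shows neither an excess nor its absence. The balance rests on the scaling too, since quantile normalization gave 4 member genes higher by over 1 and 3 lower, beside 5.84% and 4.63% of all genes.

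**Figure D1:**
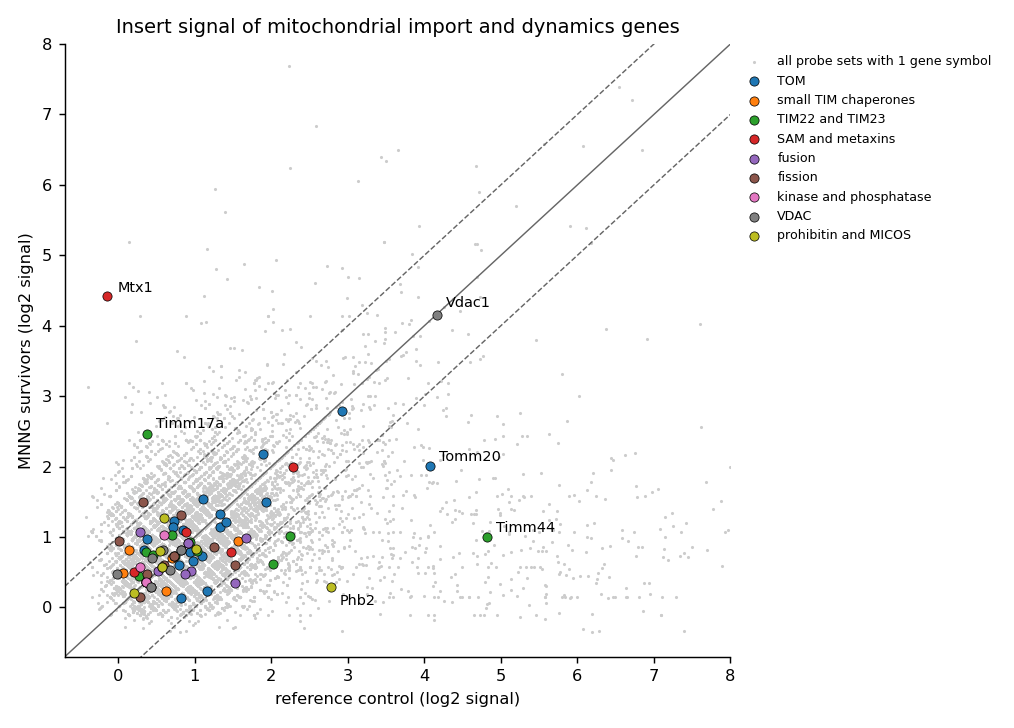
Log2 signal in the MNNG survivors (vertical axis) against the reference control (horizontal axis) at 80 probe sets of mitochondrial import and dynamics genes, coloured by role, over all probe sets with 1 gene symbol in grey (48 lie beyond the axis limit of 8). The solid line marks equal signal and the dashed lines a log2 difference of 1; Timm44, Tomm20 and Phb2 lie below the lower line and Mtx1 and Timm17a above the upper one, while Vdac1 lies on the line of equal signal.

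The clearest loss was that of Timm44, the inner-membrane protein that holds the mitochondrial Hsp70 motor at the TIM23 channel. Its 3 probe sets were all lower in the survivors. Probe set 1448801_a_at had a log2 signal of 0.998 in the survivors and 4.82 in the reference control, a difference of -3.82. This shrank to -2.91 after quantile normalization and to -3.08 after loess. In linear terms the deposited signals are 2.00 against 28.3. Its signal lay at the 99.3rd percentile of the reference control array and at the 69.0th of the survivor array. The reference control array reached higher at its bright end, with a 99th percentile of 4.11 beside 2.68 for the survivors. Probe set 1417670_at, of the same accession, had 0.62 in the survivors and 2.03 in the reference control, a difference of -1.41. The third, 1439371_x_at, had 1.02 in the survivors and 2.25 in the reference control, a difference of -1.23. The survivor signals of all 3 thus lay between the 39.1st and 69.9th percentiles of that array, and the reference control signals all lay at or above the 96.1st percentile of theirs.

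Such agreement was rare in the values as deposited. Of 4315 genes with 3 or more probe sets, Timm44 was the 1 gene whose probe sets were all lower by over 1 (0.0232%). Another 1 gene, Flcn, had every probe set higher by over 1 (0.0232%). The count was made after the values of Timm44 had been seen, so it is no test of its loss. Most probe sets also had little room to be lower by over 1, as the 75th percentile of the reference control array was 1.02. Genes with such a probe set could hardly enter the lower class, and their number was not counted. The rarity of that class therefore does not gauge the loss of Timm44. Timm44 was still the 1 gene with every probe set lower by over 1 after median centering, quantile normalization, loess and a floor on low signals. Centering on the hybridization controls, which lowers every difference, put 4218 of the 4315 genes (97.8%) in this class. With a limit of 0.5 in place of 1 there were 8 such genes, Timm44 included. Sequence shared between its probe sets was not examined, so they may not be separate readings.

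The other TIM23 and TIM22 subunits showed no such loss, but their reference control signals left little room for one. These ran from 0.27 to 1.03 on the log2 scale, beside a median of 0.69 over all probe sets. The Timm44 probe sets had 2.03 or more there, so whether the others shared its loss cannot be told. Timm17a, a core subunit of the TIM23 channel, had a log2 signal of 2.47 in the survivors and 0.38 in the reference control at its single probe set, 1426256_at, a difference of 2.09 that turned to -0.68 when the arrays were centered on the hybridization controls. It lay at the 98.7th percentile of the survivor array and the 19.8th percentile of the reference control array. Timm17b, its paralog, had 0.80 in the survivors and 1.03 in the reference control, a difference of -0.23, and one of 0.43 at its other probe set. Thus the paralogs differed in direction at their brighter probe sets, and only Timm17a passed 1.

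Timm23, the channel-forming subunit, had 0.74 on both arrays. Timm50, the receptor of the TIM23 complex, had 0.73 on both arrays at its probe set of highest mean, with differences of 0.18 and 0.29 at the others. Timm22, the channel for carrier proteins, had 0.93 on both arrays and a difference of 0.33 at its other probe set. Of the 12 probe sets of these 6 genes, 5 were higher, 4 lower and 3 equal, and 3 of the 4 lower ones were those of Timm44.

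The small TIM chaperones, which carry hydrophobic precursors across the intermembrane space, all stayed within 1. Their reference control signals, from 0.06 to 1.57 on the log2 scale, left little room for a larger loss at most probe sets. Timm10 had a log2 signal of 0.95 in the survivors and 1.57 in the reference control, a difference of -0.62. Its partner in the chaperone complex, Timm9, had 0.23 in the survivors and 0.62 in the reference control, a difference of -0.39, and its second probe set gave 0.43. In the second chaperone complex, Timm13 had 0.82 in the survivors and 0.13 in the reference control, a difference of 0.68. Timm8b had 0.70 on both arrays. Timm9 and Timm10 were thus both lower at their brightest probe sets, each by less than 1.

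Among TOM genes, 4 of 6 were higher in the survivors at the probe set of highest mean, with 1 lower and 1 equal, and 1 of the 6 passed 1. Over all 19 of their probe sets the balance was the other way, with 7 higher, 11 lower and 1 equal and a median log2 difference of -0.14. The TOM gene past 1 was Tomm20, the receptor that recognizes presequences. At probe set 1423079_a_at it had a log2 signal of 2.00 in the survivors and 4.07 in the reference control, a difference of -2.07 that shrank to -1.22 after quantile normalization and after loess. The other 5 probe sets of Tomm20 ran from -0.68 to 0.25, and 2 of these, 1423080_at (-0.19) and 1423081_a_at (0.25), carry the same accession as the one that passed. Tomm20 was also bright at 1455357_x_at, with 2.79 in the survivors and 2.93 in the reference control, a difference of -0.14. Of its 2 brightest probe sets, then, 1 was lower by over 1 and the other was nearly equal.

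Tomm40, the pore of the complex, had a log2 signal of 0.97 in the survivors and 0.38 in the reference control, a difference of 0.59. Tomm22, a central receptor, had 1.22 in the survivors and 0.73 in the reference control, a difference of 0.49, and its second probe set gave -0.32. Tomm34, a cytosolic cochaperone of import, had 1.15 in the survivors and 0.72 in the reference control, a difference of 0.43. These 3 genes were each higher by less than 1 at these probe sets, and Tomm40 and Tomm34 had 1 probe set each. Tomm7, a small subunit that also stabilizes Pink1, had 2.18 in the survivors and 1.89 in the reference control, and its 4 probe sets ran from -0.14 to 0.48. Tomm70a, the receptor for carrier proteins, had 1.33 on both arrays, and its other 4 probe sets were all lower, down to -0.92.

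The largest gain was at Mtx1, metaxin 1, an outer-membrane protein of the SAM machinery. Probe set 1418521_a_at had a log2 signal of 4.43 in the survivors and -0.15 in the reference control, a difference of 4.58. Its size depended on the processing. The difference was 5.90 after quantile normalization, 4.80 after loess and 3.95 with a floor at the 25th percentile. Centering on the hybridization controls gave 1.81. The probe set lay at the 99.8th percentile of the survivor array and the 0.187th percentile of the reference control array. The other probe set of Mtx1, 1418522_at, was built on the same accession and had 0.36 on both arrays. The gain was therefore seen by 1 of 2 probe sets. In linear terms the survivor signal was 21.5.

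The partners of Mtx1 in the outer membrane showed no gain of this kind. Mtx2, with which it forms a complex, had 0.79 in the survivors and 1.47 in the reference control at its single probe set, a difference of -0.68. Mtx3 had 0.92 on both arrays, with differences of 0.29 and 0.00 at its other probe sets. Samm50, the barrel-inserting core of the SAM complex, had 1.99 in the survivors and 2.28 in the reference control, a difference of -0.29 with its other probe sets at 0.18 and 0.00.

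**Figure D2:**
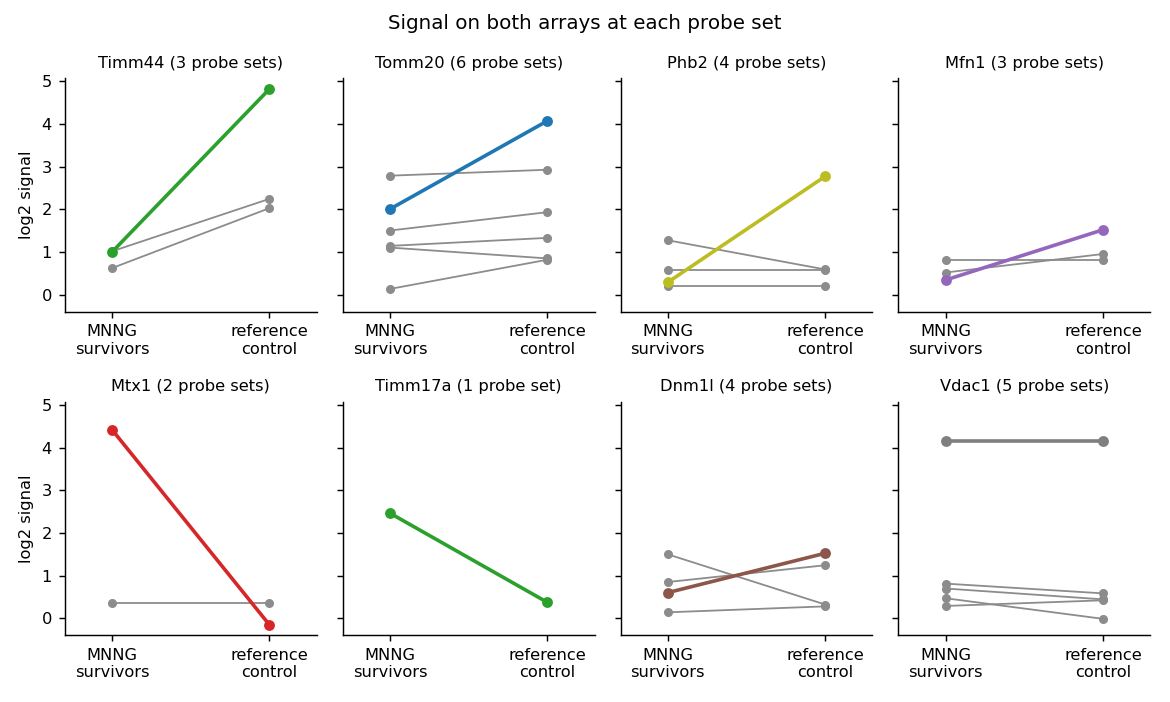
Log2 signal in the MNNG survivors (left) and the reference control (right) at each probe set of the 7 genes with a probe set past a log2 difference of 1, and of Vdac1, whose brightest probe set had a log2 signal of 4.16 on both arrays. Each line is 1 probe set, with the probe set of highest mean in colour. All 3 lines of Timm44 run the same way, whereas Mtx1 differed at 1 of 2 probe sets. The loss of Phb2 was at 1 of 4. Its other probe sets lay at 0.59 or below in the reference control, with little room for a loss.

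Of the fusion genes, the mitofusins had differences of opposite sign at their brighter probe sets. Mfn1 had a log2 signal of 0.34 in the survivors and 1.52 in the reference control at 1419997_at, a difference of -1.18, with -0.43 and 0.00 at the others. Mfn2 had 1.07 in the survivors and 0.28 in the reference control, a difference of 0.78, with 0.00 at its other probe set. Opa1, the dynamin of inner-membrane fusion, had 0.98 in the survivors and 1.67 in the reference control, a difference of -0.69, with -0.39 and 0.00 at the others. No probe set of Mfn1 or Opa1 was higher in the survivors, and none of Mfn2 was lower.

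The fission gene Dnm1l, also known as Drp1, gave both signs. At its probe set of highest mean, 1428086_at, it had a log2 signal of 0.60 in the survivors and 1.53 in the reference control, a difference of -0.92. At 1452638_s_at it had 1.502 in the survivors and 0.32 in the reference control, a difference of 1.18 (-1.59 under the same centering), although 1428008_at of the same accession had -0.14. The direction for Dnm1l thus depended on the probe set. Mff, an outer-membrane receptor for Dnm1l, had 1.31 in the survivors and 0.82 in the reference control, a difference of 0.48 with the other probe sets between -0.14 and 0.10. Fis1, another outer-membrane protein linked to fission, had 0.60 on both arrays and a difference of 0.92 at 1443819_x_at.

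Pgam5, a mitochondrial phosphatase with roles in cell death and mitophagy, is among the genes that the study selected from this screen, so its direction is not independent evidence. Its single probe set had a log2 signal of 1.03 in the survivors and 0.60 in the reference control, a difference of 0.43. This lay within 1 on the deposited scale. Pink1, the kinase that marks damaged mitochondria for removal, had 0.57 in the survivors and 0.28 in the reference control, a difference of 0.29, with 0.00 at its other probe set. At these probe sets both genes lay between the 12.4th and 70.7th percentiles of the arrays.

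The voltage-dependent anion channels, the main pores for metabolites in the outer membrane, had differences from -0.14 to 0.48 over their probe sets. Vdac1 had a log2 signal of 4.16 on both arrays at 1437192_x_at, at the 99.8th percentile of the survivor array and the 99.03rd percentile of the reference control array. The remaining 4 probe sets of Vdac1 lay at 0.81 or below in the survivors and at 0.59 or below in the reference control, with differences from -0.13 to 0.48. Vdac2 had 0.82 on both arrays, and Vdac3 had 0.53 in the survivors and 0.67 in the reference control. Apart from 1437192_x_at, the probe sets of these genes thus had little room for a loss. The ending _x_at of that probe set marks possible matches to other transcripts, and its difference of 0.00 was shared by 6826 probe sets.

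Phb2, prohibitin 2, which forms ring-like scaffolds in the inner membrane and acts as a mitophagy receptor, was lower at its brightest probe set. At 1416202_at it had a log2 signal of 0.29 in the survivors and 2.77 in the reference control, a difference of -2.48. This was -2.54 after median centering, -2.51 after loess and -2.24 after quantile normalization. The other 3 probe sets had 0.68, 0.00 and 0.00, so the loss was seen by 1 of 4. Their reference control signals were 0.59, 0.57 and 0.21, which left little room for a loss. Whether they shared it therefore cannot be told. Immt, mitofilin, the core of the MICOS complex that shapes cristae, had 0.83 in the survivors and 1.02 in the reference control, and its 3 probe sets ran from -0.19 to 0.25.

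**Figure D3:**
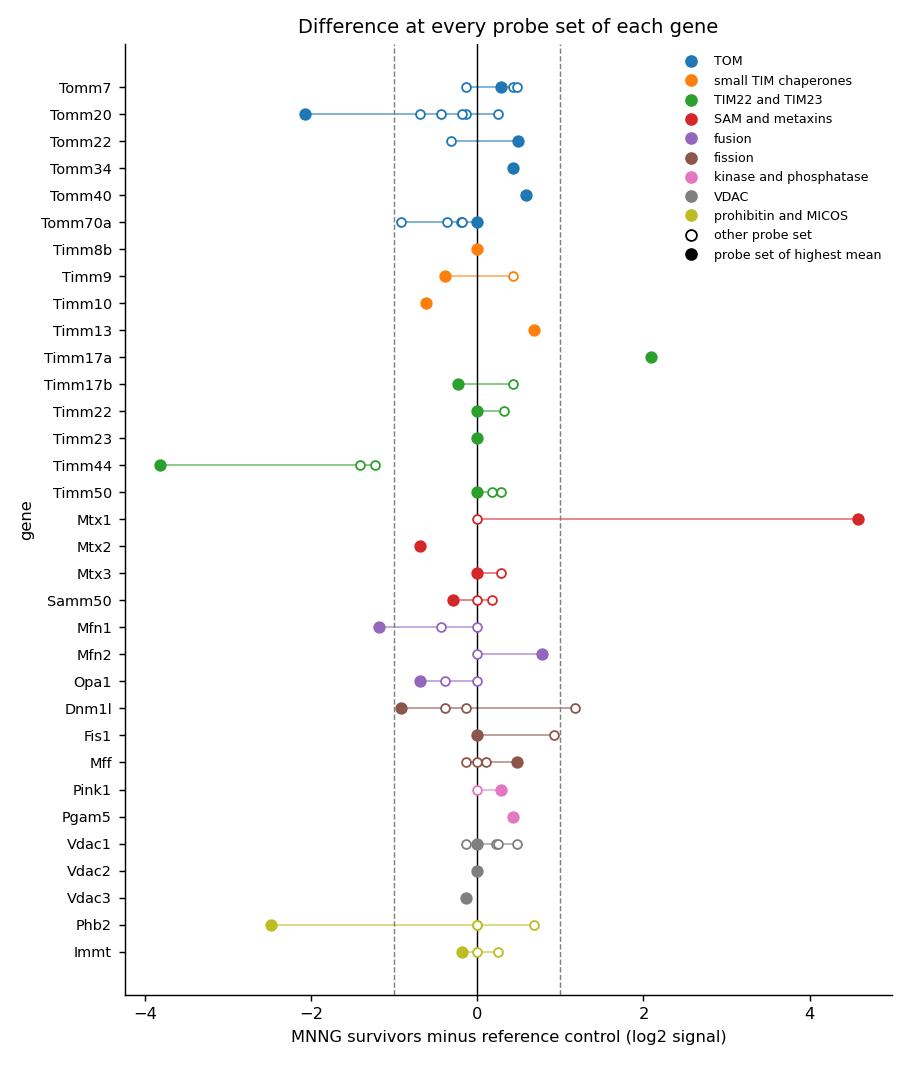
Log2 difference, MNNG survivors minus reference control (horizontal axis), at every probe set of the 33 measured genes (vertical axis), coloured by role. Filled points are the probe set of highest mean signal of each gene, open points its other probe sets, and dashed lines mark -1 and 1; 26 of the 33 genes have every probe set between the dashed lines.

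The probe sets of a gene often differed from each other in direction or size. Of the 22 genes with 2 or more probe sets, 11 had differences of both signs, beside 47.7% of all genes with several probe sets. A range of over 1 was seen in 6, or 27.3% beside 31.0% of all such genes. The SD of the differences within a gene, pooled over these 22 genes, was 0.80 on the log2 scale, and 0.79 over the 9010 genes of the array with several probe sets. Of 10 accessions with several probe sets, 4 had a range of over 1, at 4.58 for Mtx1, 2.42 for Timm44, 2.32 for Tomm20 and 1.32 for Dnm1l, and 6 had ranges from 0.29 (Mtx3) to 0.74 (Mfn1). The differences as deposited of Timm44, Mtx1, Phb2, Tomm20 and Timm17a at their brightest probe sets were over 2 in size on the log2 scale. They are named as the largest of the group, and that of Tomm20 was -1.22 after quantile normalization and after loess. The pooled SD is a spread between probe sets and not between repeated arrays. It also includes those of these genes with several probe sets, so it cannot gauge these differences.

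Many differences also took repeated values. The 80 probe sets had 38 distinct differences when rounded to 4 decimals, and 54 of the 80 shared theirs with another of the 80. The difference of 0.43 at Pgam5 was found, at 4 decimals, at 1503 probe sets of the array, among them probe sets of Tomm7, Tomm34, Timm9 and Timm17b. A difference of 0.00 was found at 20 of the 80, or 25%, beside 19.5% of all probe sets with 1 symbol. The differences at the brightest probe sets of Timm44, Mtx1 and Tomm20 each occurred at 1 probe set of the array. Large differences were repeated too, as that of Timm17a (2.09) occurred at 15 probe sets and that of Phb2 (-2.48) at 7.

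Across the 80 probe sets, survivor and reference control signals correlated with a Spearman coefficient of 0.37 and a Pearson coefficient of 0.39, against 0.34 and 0.38 across all probe sets with 1 symbol. These are correlations across probe sets, which share the arrays and are not independent.

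Other genes of the same processes were taken from a list of 54, of which 48 were measured. At the probe set of highest mean, 21 partners were higher in the survivors, 18 lower and 9 equal, with a median log2 difference of 0.00. By over 1, 4 were higher, or 8.33% beside 4.78% of all genes, and 0 were lower, beside 5.45%. The genes past 1 in this list were thus all higher, whereas 4 of the 6 such members were lower.

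Hspa9, the mitochondrial Hsp70 that Timm44 holds at the import channel, had a log2 signal of 2.88 in the survivors and 1.08 in the reference control, a difference of 1.80, but its 5 probe sets ran from -0.89 to 1.80. Timm8a1, a small TIM chaperone, had 1.98 in the survivors and 0.54 in the reference control, a difference of 1.44, with 0.25 at its other probe set. Grpel1, the nucleotide exchange factor of Hspa9, had 0.14 in the survivors and 1.07 in the reference control, a difference of -0.92. Pam16, a regulator of the same motor, had a difference of 0.78. The motor genes around Timm44 therefore gave both signs.

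In quality control, the matrix protease Lonp1 had a log2 signal of 1.98 in the survivors and 0.67 in the reference control, a difference of 1.304 at its single probe set. Htra2, a protease of the intermembrane space, had 3.95 in the survivors and 2.25 in the reference control, a difference of 1.70 with -0.32 at its other probe set. Spg7, a subunit of the inner-membrane AAA protease, had a difference of -0.89, and Park7 had one of -0.68. Among dynamics partners 0 of 13 passed 1, with Trak1, a motor adaptor, at -0.69 and Mief1, a receptor for Dnm1l, and the ubiquitin ligase Marchf5 both at 0.52. Among the 6 cristae partners 0 passed 1, although 1 of the 4 probe sets of Dnajc11 reached 1.93.

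**Figure D4:**
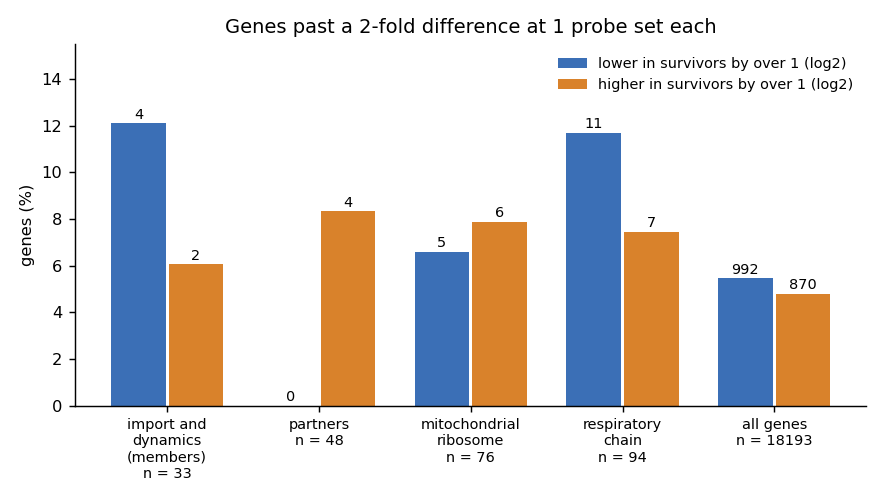
Share of genes (vertical axis, percent) lower (blue) and higher (orange) in the MNNG survivors than in the reference control by over 1 on the log2 scale, for the 33 members, their 48 partners, 76 mitochondrial ribosomal proteins, 94 genes of the respiratory chain and ATP synthase, and all 18193 genes, each at 1 probe set. Numbers above the bars are genes; 4 of 33 members were lower and 2 were higher, and no test stands behind the differences between lists.

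Other mitochondrial genes were counted in the same way. Of 94 genes of the respiratory chain and ATP synthase, 11.7% were lower by over 1 and 7.45% higher, shares near the 12.1% and 6.06% of the members. Of 76 mitochondrial ribosomal proteins, 6.58% were lower and 7.89% higher. All 3 groups had a median log2 difference of 0.00. The respiratory chain held 6 genes that exceeded a log2 signal of 5 on the reference control array, whereas the members held 0 (1.10% of all genes).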

How the data were processed

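Library inserts of MNNG survivors and of the reference control were each read on 1 array (1 sample per condition), and samples were grouped by their titles. The values deposited by the authors are log2 signals of probe sets. RMA is named in the submitters' notes on processing, with no version given in the sources used here. The study's text names total RNA as the template and the labels genomic DNA. Signal distributions differed between the deposited arrays, and the 99th percentile was 2.68 for the survivors and 4.11 for the reference control.

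Affymetrix control probe sets (64) were set aside. Gene names came from the array annotation, with symbols updated through the gene ID for 34741 of 34945 probe sets from GRCm38.p6, used for names only. Of the rest, 932 probe sets carried several symbols and 9160 none. Differences are survivors minus reference control, and the probe set with the highest mean log2 signal stood for its gene. Probe set names ending in _x_at or _s_at mark possible matches to other transcripts. All members were named at that probe set and at others past 1 or above 2.5, and up to 4 genes per partner group by largest difference. Other probe sets and the count of genes with agreeing probe sets were added after values were seen. The members and lists were chosen with earlier results of these data known. With 1 array per condition no test was possible, and precision is limited by the number of arrays. Steps were tested on simulated data. Alternatives were other scalings, a floor, probe sets left out and other probe sets per gene. Insert and probe sequences were not used here. Python 3.11.15, numpy 2.4.6, pandas 2.3.3, statsmodels 0.14.6 and matplotlib 3.10.9 were used.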

Additional observations from a re-analysis of the deposited data

How the results depend on the processing

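Of 86 recomputed counts and medians, 61 stayed within 1.5 times the deposited count or within 0.47 of the median, which is the spread of the log2 differences over all probe sets (scaled median absolute deviation). Centering on the hybridization controls lowers every difference by 2.77. Under it, member genes lower by over 1 numbered 31 and higher 1, beside 99.3% and 0.0989% of all genes. Those lower by over 2.5 numbered 22, and the medians of members, partners and all genes were each -2.77. Partners then numbered 47 lower and 0 higher, and member probe sets 78 lower, 1 higher and 58 lower by over 2.5. Timm17a at 1426256_at turned to -0.68 and Dnm1l at 1452638_s_at to -1.59, while Mtx1 stayed higher at 1.81. After it, 4218 of 4315 genes had every probe set lower by over 1.

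Quantile normalization gave 4 member genes higher by over 1 and 3 lower, against 2 and 4 as deposited. The shares over all genes were 5.84% and 4.63%, against 4.78% and 5.45% as deposited. This scaling gave 5 member probe sets higher beside 6 lower. Loess and median centering each gave 2 genes and 2 probe sets lower by over 2.5. With the probe set of lowest mean 1 member gene was lower by over 1 and 1 was higher, beside 1.86% and 2.62% of all genes. In that setting 0 were lower by over 2.5, and 2 partners were higher by over 1. With the probe set of highest survivor signal 1 member gene was lower and 3 were higher, beside 2.96% and 6.22% of all genes. Here too 0 were lower by over 2.5. With the median over probe sets 1 member gene was lower and 2 were higher, beside 2.04% and 2.13% of all genes. Again 0 were lower by over 2.5, and 1 partner was higher by over 1. The cause of these shifts was not tested. No paired analysis was possible because each condition has 1 array, and none could be left out.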
